A study of Mus musculus with 4 samples.

Results

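The genes described here encode the ligands and receptors of the tumour necrosis factor (TNF) family, in lymphoid-primed multipotent progenitors (LMPP) of mouse bone marrow. Members were taken by name: every gene on the array whose symbol starts with Tnfrsf (receptors) or Tnfsf (ligands), plus Tnf, Lta, Ltb, Ltbr, Cd27, Cd40, Fas, Ngfr, Cd70 and Fasl. This gave 41 genes of 20280 with a symbol on the array, 25 receptors and 16 ligands. Of 43 such symbols in the RefSeq table, Tnfsf13 and its opposite-strand RNA Tnfsf13os were matched to no probe and were not analysed here. All cells came from mice with green fluorescent protein (GFP) knocked in as a reporter of IRF8, a transcription factor of monocytes and dendritic cells. They were enriched on magnetic columns and then sorted as negative for lineage markers, IL-7R and CD150, and positive for Sca-1, CD117, CD34 and CD135. The reporter split them into an IRF8-GFP negative and an IRF8-GFP positive group of 2 one-colour arrays each, named exp 1 and exp 2 in the titles. The age and sex of the mice, whether animals were pooled and whether the reporter leaves a working Irf8 allele are not given in the sources used here. The labels do not say whether the arrays of a group stem from different animals, and p-values here reflect the spread of 2 arrays a group, which may be technical.

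Ligands of this family are mostly trimeric proteins of the cell surface, some of which are also shed, and their receptors carry cysteine-rich outer domains. Receptors with a death domain can start cell death through the adaptor FADD and caspase-8. Others recruit TRAF adaptors and activate the NF-kappaB transcription factors, either by the classical route through the IKK complex or by the alternative route that ends in RelB and p52, the product of Nfkb2. In blood formation the family is best known for lymphoid organ development, lymphocyte survival and costimulation, and TNF and Fas ligand also act on progenitors.

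Between 29631 and 33681 of 59305 spots per array were well above background, with fewer on both positive arrays than on both negative ones. The gate genes Cd34, Kit, Flt3 and Ly6a, which encode CD34, CD117, CD135 and Sca-1, were above background on all 4 arrays, and Slamf1, which encodes CD150, on none. Il7r, the gene of the receptor that the sort selected against, was also above background on all 4 arrays, at -1.57 and -1.54 in the negative and 0.86 and 0.83 in the positive group, 5.26-fold higher in the latter (limma adjusted p = 0.000835). Kit (-0.39) and Ly6a (-0.96) were lower under every scaling described below. Irf8 itself stood at 1.62 ± 0.03 in the negative and 5.17 ± 0.06 in the positive group (log2 signal minus the 75th percentile of its array, SD, n = 2). All levels below are on that scale, and differences are positive minus negative. Levels of different genes come from different probes and are not compared with each other.

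Under the scaling used in the text, a smaller share of the family passed than of all genes. This depended on the scaling. With spike-in scaling, described below, 0 members were higher and 17 lower, against 3464 and 7965 of all 22362 genes. Only 4 of the 30 tested members passed the test with the same sign under every scaling described below, and all 4 were decreases. Others kept their sign without passing each time. In this text, higher or lower under every scaling means passing the test with that sign in each. Of all genes 14.4% were lower in the same way, so the count of decreases does not set the family apart. Of the 41 genes, 28 were well above background on all 4 arrays and 9 on none. A filter requiring signal on both arrays of 1 or both groups left 30 to be tested. With limma on all 22362 genes and transcripts and Benjamini-Hochberg adjustment, 5 members passed an adjusted p of 0.05 as higher, where 38.5% of everything tested was higher, and 5 as lower, where the share was 21.4%. Together 33.3% of the tested members passed, against 59.9% of all genes. With a difference of at least 2-fold also required, 0 members were higher and 2 lower, against 2.33% and 5.61% of all genes. The 2 were Ltb and Fas, but Fas was below background on both positive arrays and its fitted difference is no measured fold. Among genes with a symbol the shares were 44.1% higher and 19% lower. A member that is bright in only 1 group can enter the test only through that group, so these counts describe the genes that passed the filter. Calls depended on the level: in 4 equal classes of all genes, from the dimmest to the brightest, 17.8%, 24.5%, 44.6% and 67.1% were higher and 26%, 31.8%, 19.8% and 7.85% lower. The 30 members fell into these classes as 5, 14, 6 and 5. The median difference of the 30 was -0.03, against 0.16 for all genes tested.

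Because that median of all genes moved with the scaling, from 0.20 under normexp background correction to -0.13 when the arrays were set on spike-in controls, each member was also refitted under 6 other scalings. These are not independent checks. Quantile normalization and the deposited matrix gave nearly the same differences. Centring on probes above background and spike-in scaling each move the difference of every gene by the same amount. In 4 members, Ltb, Tnfrsf25, Tnfrsf18 and Tnfsf10, the decrease passed under all 7 scalings, while 0 increases did. The same rule held for 14.4% of all genes downward and 13.7% upward. Higher calls made up 50% of the called members as scaled here, and 64.3% of all called genes. Under 5 of the 6 other scalings the median of all genes was lower than here, and both shares fell. They were 40% and 52.4% for the deposited matrix, 40% and 52.6% after quantile normalization, and 30% and 49.1% with cyclic loess. Centred on probes above background they were 6.67% and 37.7%, and with spike-in scaling 0% and 30.3%. Both arrays of 1 group lay beyond both of the other in 19 of the 30 members (63.3%), where 82.2% of all genes did.

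**Figure D1:**
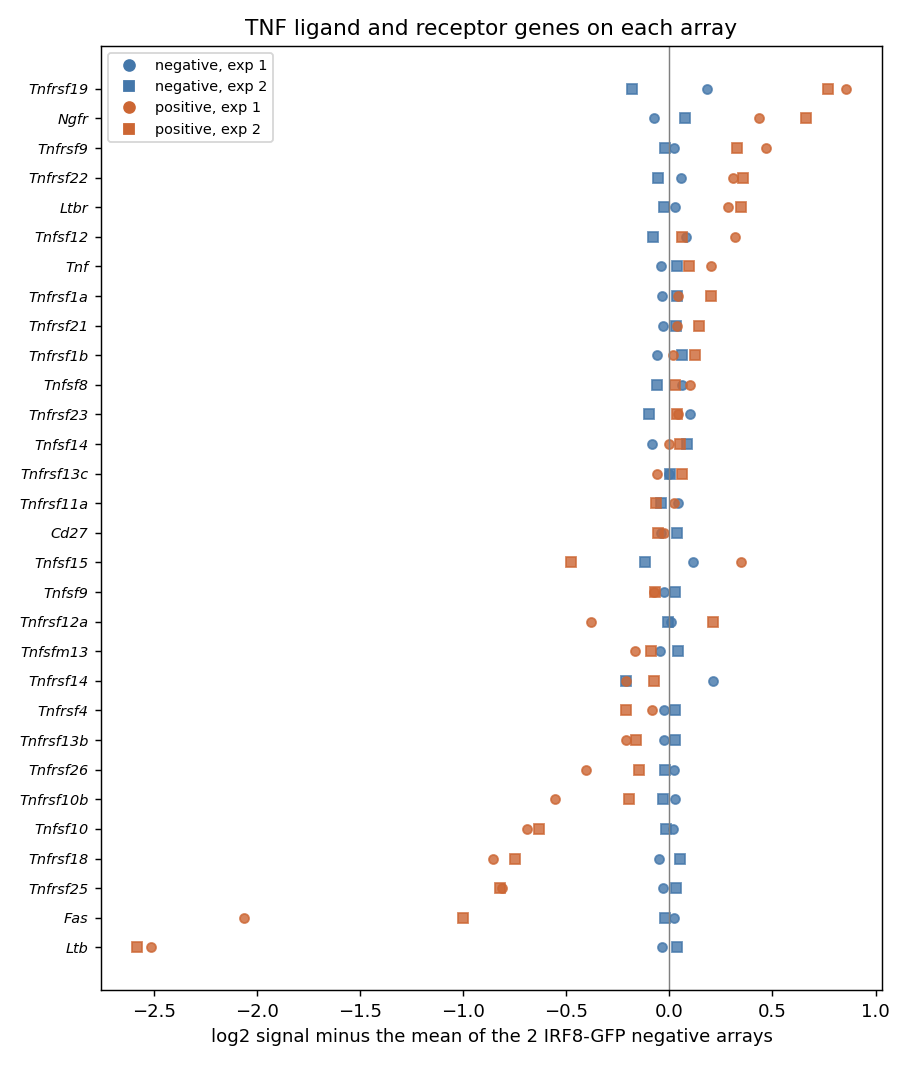
Each of the 30 tested genes is a line, ordered by its difference, and its 4 points are the arrays (blue negative, orange positive, circles exp 1, squares exp 2), plotted as log2 signal minus the mean of the negative arrays. Ltb lies farthest to the left, with both positive arrays about 2.5 below the negative mean, most genes gather around 0, and Fas shows wide spread between its positive arrays.

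Among the ligands, lymphotoxin beta moved most. Ltb encodes the membrane anchor that holds lymphotoxin alpha at the cell surface, where the complex signals through the receptor of Ltbr. Its level was 5.23 and 5.31 in the negative group and 2.75 and 2.68 in the positive group. The replicates lay within 0.08 of each other and the groups were far apart. The difference of -2.55 (SE 0.06) is 5.85-fold lower in IRF8-GFP positive LMPP, with a limma adjusted p of 0.000859. Only 0.34% of all genes tested had a difference this low or lower. The difference ran from -2.91 to -2.55 over the 7 scalings, and it passed without any single array (adjusted p of up to 0.021).

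The promoters of members were searched on both strands for the NF-kappaB consensus, because lymphotoxin beta is a textbook NF-kappaB target and NF-kappaB genes are part of this pathway. RefSeq promoters of GRCm38.p6, 250 bases before to 50 after each annotated start, were at hand for 32 of the 41 genes. The consensus matched in 4 of these genes, Ltb, Tnfrsf25, Tnfrsf9 and Tnfrsf8. That is 4 of the 36 member promoters, against 8.46% of all 32851 promoters. The first 3 are shown because their genes passed the test, 2 of them downward and Tnfrsf9 upward. Capitals mark the matches.
Ltb (chr17:35194257-35194556, plus strand): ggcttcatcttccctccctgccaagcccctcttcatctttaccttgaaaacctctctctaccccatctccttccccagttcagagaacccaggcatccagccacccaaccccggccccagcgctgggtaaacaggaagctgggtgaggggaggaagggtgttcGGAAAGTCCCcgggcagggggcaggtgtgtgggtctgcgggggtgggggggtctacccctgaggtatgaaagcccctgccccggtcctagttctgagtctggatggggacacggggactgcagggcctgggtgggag
Tnfrsf25 (chr4:152116093-152116392, plus strand): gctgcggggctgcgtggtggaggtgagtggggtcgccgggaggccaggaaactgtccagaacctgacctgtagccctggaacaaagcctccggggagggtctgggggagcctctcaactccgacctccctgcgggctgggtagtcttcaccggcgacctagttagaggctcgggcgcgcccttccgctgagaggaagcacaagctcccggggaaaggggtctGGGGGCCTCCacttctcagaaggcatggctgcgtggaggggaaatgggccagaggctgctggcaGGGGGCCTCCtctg
Tnfrsf9 (chr4:150927749-150928048, plus strand): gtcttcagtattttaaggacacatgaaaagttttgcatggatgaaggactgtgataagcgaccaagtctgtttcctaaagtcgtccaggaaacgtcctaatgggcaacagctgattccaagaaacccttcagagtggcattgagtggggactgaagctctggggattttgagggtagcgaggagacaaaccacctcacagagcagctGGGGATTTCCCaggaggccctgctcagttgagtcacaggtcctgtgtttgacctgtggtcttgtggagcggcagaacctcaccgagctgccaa
In Ltb the match lies 87 to 78 bases before the start and reads GGGACTTTCC on the opposite strand. In Tnfrsf9 overlapping matches cover 43 to 33 bases before the start, and in Tnfrsf25 the same 10 letters occur once before the start (28 to 19 bases) and again after it. Tnfrsf18 and Tnfsf10, the other members lower under every scaling, hold no match in this window. A match is a stretch of letters and no measured binding site.

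Tnfsf10, which encodes the death ligand TRAIL, was the other ligand that fell. Its level was 2.34 and 2.31 in the negative group and 1.63 and 1.69 in the positive group. The groups did not overlap, and the difference of -0.66 (SE 0.06, 1.58-fold lower) had a limma adjusted p of 0.00262. Over the 7 scalings it lay between -0.96 and -0.66. Its signalling receptor in the mouse, Tnfrsf10b, went from -0.01 and -0.07 to -0.59 and -0.24. Both positive arrays were lower, but they differed from each other by more than the negative arrays did, and the difference of -0.38 (SE 0.14) did not pass (adjusted p = 0.0787). Tnfrsf10b passed as lower under 2 other scalings.

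Tnf, the founding cytokine of the family, was measured on all arrays and did not pass. It stood at -1.45 and -1.37 in the negative and -1.21 and -1.31 in the positive group, a difference of 0.15 (SE 0.07, 95% interval -0.05 to 0.34, adjusted p = 0.138). Its sign turned with spike-in scaling (-0.15) and with centring on probes above background (-0.09), while it passed as higher after quantile normalization (0.26, adjusted p = 0.0389) and in the authors' deposited matrix (0.26, adjusted p = 0.0351). Tnfsf14, the ligand LIGHT, had a difference of 0.02 (SE 0.08), Tnfsf8 0.06 (SE 0.07) and Tnfsf9, a costimulatory ligand, -0.07 (SE 0.06). Tnfsf9 passed as lower under 2 other scalings and Tnfsf14 under 1. Tnfsf15 was dim, with 1 of 2 positive arrays above background, and its interval of -0.91 to 0.78 leaves its difference unresolved.

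For Tnfsf12, which encodes TWEAK, the probes disagreed. The brighter probe gave a difference of 0.19 (SE 0.12), with levels of -0.01 and -0.17 in the negative and 0.23 and -0.02 in the positive group. The dimmer went the other way, from -2.56 and -2.92 to -3.71 and -4.03, a difference of -1.13. The 2 probes of the read-through gene Tnfsfm13, which joins Tnfsf12 and Tnfsf13, gave -0.13 and -0.27. These transcripts share sequence, so the array may not tell them apart, and no direction is given for TWEAK.

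The remaining 7 ligands could not be compared. Fasl, Cd70, Tnfsf4, Tnfsf11 and Tnfsf18 were above background on 0 of 4 arrays. Lta, the partner of lymphotoxin beta, and Tnfsf13b, which encodes the B cell survival factor BAFF, were above background on a single negative array and were not tested. Signals this dim have no usable order, so no fold is given.

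Of the 6 receptors with a death domain, Tnfrsf25 fell, Ngfr rose, 3 did not pass, and Fas passed as lower without being measurable in the positive group. Tnfrsf25, a death receptor of lymphocytes whose ligand is the product of Tnfsf15, stood at -2.34 and -2.28 in the negative group and -3.12 and -3.14 in the positive group. Replicates were within 0.06 and the groups did not overlap. The difference was -0.82 (SE 0.06, 1.76-fold lower, limma adjusted p = 0.00205). Over the 7 scalings it lay between -1.11 (spike-in scaling) and -0.24 (normexp).

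Fas was dim. Its levels were -4.03 and -4.07 in the negative group, where both arrays were above background, and -6.11 and -5.05 in the positive group, where neither was. The difference of -1.53 (SE 0.38) passed with an adjusted p of 0.0289, but the positive arrays differ from each other by more than 1 on the log2 scale. The negative mean of -4.05 lies below the lowest signal well above background on the positive arrays (-3.99 and -4.01), so no fold can be given, not even as a bound. With normexp background correction the difference was 0.06 (adjusted p = 0.548). The call was also lost without negative replicate 1 (adjusted p = 0.112), without negative replicate 2 (0.11) and with no filter on dim probes (0.0605).

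Tnfrsf18, which encodes the costimulatory receptor GITR, was the TRAF-binding receptor that fell. It went from 2.89 and 2.99 on the negative to 2.09 and 2.19 on the positive arrays. All 4 arrays were well above background and the groups did not overlap. The difference of -0.80 (SE 0.07, 1.74-fold lower) had a limma adjusted p of 0.00285 and lay between -1.10 and -0.80 over the 7 scalings. The next gene on chromosome 4, Tnfrsf4, encodes the related receptor OX40. It stood at 0.42 and 0.48 in the negative and 0.37 and 0.24 in the positive group, a difference of -0.15 (SE 0.07) that did not pass (adjusted p = 0.149). Under 2 other scalings Tnfrsf4 passed as lower.

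Of the 5 receptors that passed as higher, 0 passed under all 7 scalings. Their differences stayed above 0 under each, the lowest being 0.006 for Ltbr with cyclic loess. Tnfrsf19, which encodes TROY, went from -3.71 and -4.08 to -3.04 and -3.13. The negative arrays were the more scattered, and the groups did not overlap. Its difference of 0.81 (SE 0.14, 1.76-fold, adjusted p = 0.0117) passed under 6 scalings and missed with spike-in scaling (0.52, adjusted p = 0.0589). Its other probe was too dim to keep.

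Ngfr, the low-affinity neurotrophin receptor, rose from -4.17 and -4.02 to -3.66 and -3.43 (difference 0.55, SE 0.11, adjusted p = 0.0165). It lay close to the background limit and passed under 5 scalings. That limit, the lowest signal well above background, was itself higher for positive arrays (-3.99 and -4.01) than for negative ones (-4.67 and -4.73). All 9 members above background on no array also had positive differences, from 0.10 to 1.55. The share of this offset in the rises of Ngfr and Tnfrsf19 was not tested. Tnfrsf22, a decoy receptor for TRAIL, rose from -1.67 and -1.78 to -1.42 and -1.37 (0.33, SE 0.07, adjusted p = 0.0186) and also passed under 5, and its dimmer probe gave 0.66. Its neighbours on chromosome 7, Tnfrsf23 (0.04, SE 0.09) and Tnfrsf26 (-0.27, SE 0.11), did not pass, although Tnfrsf26 passed as lower under 3 other scalings. The 3 genes are close relatives, and shared hybridization cannot be set apart here.

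Tnfrsf9, a costimulatory receptor of activated lymphocytes, rose from 3.35 and 3.30 to 3.80 and 3.65 (0.40, SE 0.08, adjusted p = 0.0144). Ltbr, the lymphotoxin beta receptor, rose from 2.90 and 2.84 to 3.15 and 3.22 (0.32, SE 0.06, adjusted p = 0.0152). Both sets of arrays were tight and apart, yet each gene passed under only 2 of the 7 scalings, and their differences fell to 0.06 and 0.01 with cyclic loess. Leaving out negative replicate 1 or negative replicate 2 ended the calls of Ltbr, Ngfr, Tnfrsf9 and Tnfrsf22 (adjusted p between 0.0541 and 0.0979), and Tnfrsf22 also missed without positive replicate 2 (0.0543). Without either negative array the number of higher members was 1.

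**Figure D2:**
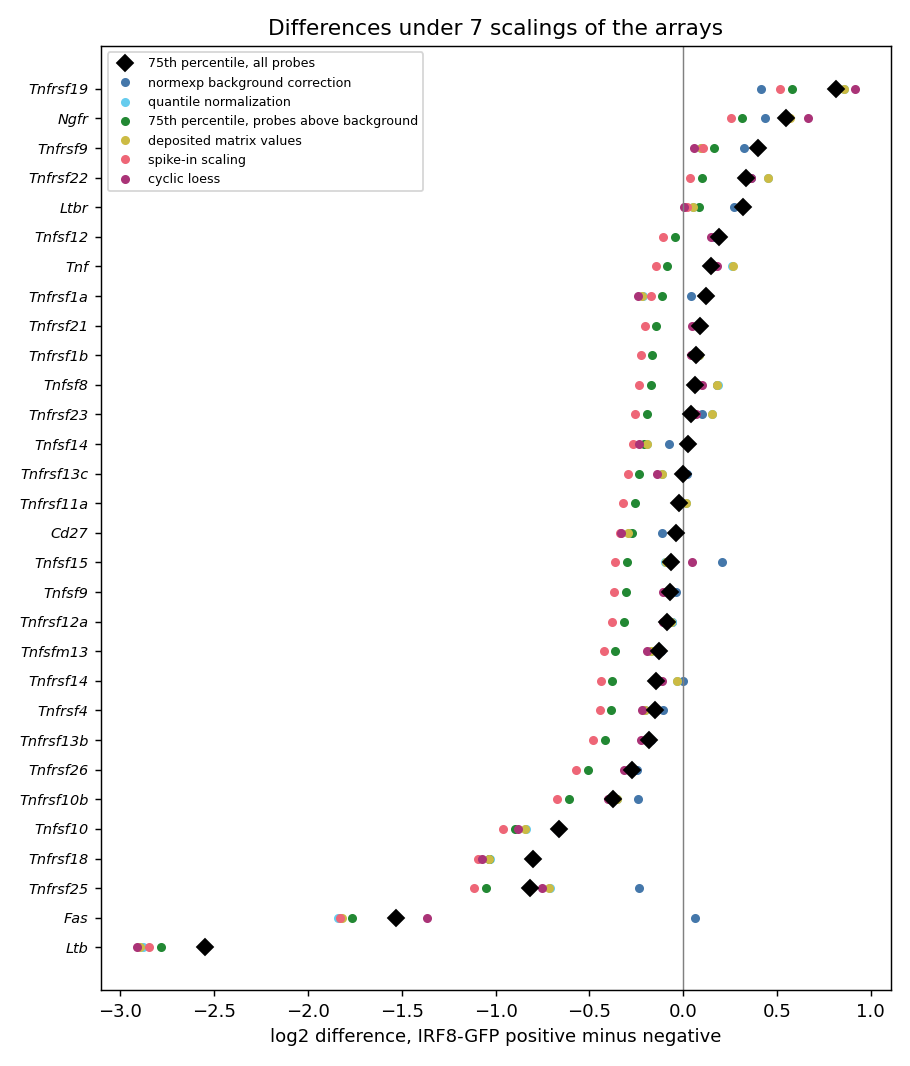
The log2 difference of each tested gene, in the same order, is shown under 7 scalings of the arrays, the black diamond being the scaling used in the text. Ltb, Tnfrsf25, Tnfrsf18 and Tnfsf10, which passed as lower under all of them, stay left of 0. So do others that did not pass under all, such as Tnfrsf10b and Cd27. Tnfrsf19, Ngfr, Tnfrsf9, Tnfrsf22 and Ltbr stay right of 0. Fas has a single point right of 0 (normexp), and for several genes in the middle the sign depends on the scaling.

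The 20 members that did not pass include the main TNF receptors. Tnfrsf1a, the widely expressed receptor with a death domain, stood at 4.01 and 4.09 in the negative and 4.09 and 4.25 in the positive group (0.12, SE 0.08, 95% interval -0.11 to 0.35), and its second probe gave 0.14. Tnfrsf1b, the receptor without a death domain, had 0.07 (SE 0.08, interval -0.14 to 0.28). Tnfrsf21, a further death receptor, had 0.09 (SE 0.07). Spike-in scaling turned all 3 signs, to -0.17, -0.23 and -0.21, and Tnfrsf1b (adjusted p = 0.0493) and Tnfrsf21 (0.0452) then passed as lower.

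Cd27, which marks lymphoid-primed progenitors and binds CD70, was level at 2.77 and 2.85 in the negative and 2.78 and 2.75 in the positive group. The arrays of the groups interleave, the interval of the difference is -0.21 to 0.13, and a second probe gave -0.07. Under 5 of the other scalings, however, Cd27 passed as lower, with differences down to -0.33. Tnfrsf11a, which encodes RANK, had -0.02 (SE 0.07). It passed as lower with spike-in scaling (-0.32, adjusted p = 0.0403) and when centred on probes above background (-0.26, adjusted p = 0.0445).

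The receptors for BAFF and its relative APRIL gave no call under the scaling used here. Tnfrsf13c, the BAFF receptor, stood at 1.16 and 1.17 in the negative and 1.10 and 1.23 in the positive group, with an interval of -0.19 to 0.19, but passed as lower when centred on probes above background (-0.23, adjusted p = 0.0473) and with spike-in scaling (-0.29, adjusted p = 0.0186). For Tnfrsf13b, which encodes TACI, the brighter probe gave -0.18 (SE 0.06, adjusted p = 0.0562) and the dimmer 0.60. The brighter one passed as lower under 3 other scalings and the mean of both as higher (0.21, adjusted p = 0.0462), so no direction is given. Tnfrsf17, which encodes BCMA, was above background on 0 arrays. The same disagreement holds for Tnfrsf14, the receptor of LIGHT, at -0.14 and 0.43.

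Tnfrsf12a, the TWEAK receptor, could not be resolved: its positive arrays stood at -0.55 and 0.04, on either side of the negative arrays at -0.16 and -0.18. Cd40, Tnfrsf8 and the secreted decoy Tnfrsf11b were above background on 0 arrays. Of the 20 members that did not pass, 14 had a 95% interval wholly within 0.5 of 0 on either side, and 6 had wider ones.

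Several members sit side by side in the genome, and their calls are set next to each other here. No difference between neighbours was tested. On chromosome 17, Ltb, Tnf and Lta follow one another with 0 other coding genes between them: Ltb was 5.85-fold lower, Tnf did not pass and Lta was at background. On chromosome 6, Cd27, Ltbr and Tnfrsf1a are each separated by 1 coding gene. Of these Ltbr alone passed, by 0.32, under the scaling used here. A second group on chromosome 17 holds Tnfsf9, Cd70 and Tnfsf14. Of these Tnfsf9 and Tnfsf14 did not pass under the scaling used here, and Cd70 was at background and not tested.

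Downstream genes were taken from 3 lists of known pathway members, 59 genes, of which 58 were tested. There 22 were higher and 12 lower, against the 38.5% and 21.4% above. Under all 7 scalings 6 passed as higher and 12 as lower, as 13.7% and 14.4% of all genes did. The split depended on the scaling, with 11 higher and 20 lower after quantile normalization and 6 and 26 with spike-in scaling. The median was 0.17, and that of all genes 0.16.

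Of 16 NF-kappaB genes tested, 7 were lower and 3 higher, where 21.4% and 38.5% of all genes were, and 6 passed in neither direction. Their median was -0.16. All 7 decreases held under every scaling, as 14.4% of all genes did downward, and 4 of the 7 lost their call without 1 of the arrays. Relb, the subunit of the alternative route, went from 0.11 and 0.24 to -0.81 and -0.93, a difference of -1.05 (SE 0.08, 2.07-fold lower, adjusted p = 0.00223). Tnip3, which encodes an inhibitor that binds the ubiquitin-editing enzyme of Tnfaip3, went from -0.46 and -0.48 to -1.69 and -1.72, a difference of -1.24 (SE 0.05, adjusted p = 0.00141). Nfkbiz, an inducible nuclear regulator, fell by 0.95 (SE 0.08) and Tnfaip3 by 0.46 (SE 0.07). In all of them the replicates were much closer together than the groups.

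The smaller decreases were those of Bcl3, an atypical inhibitor (-0.39), Nfkb2 (-0.25) and Nfkbie (-0.25), named here after their values were seen. Each of these lost its call without negative replicate 1 or negative replicate 2, and Nfkb2 without positive replicate 2 and Nfkbie without positive replicate 1 as well (adjusted p of up to 0.142). Tnfaip3 did so without negative replicate 2 (0.0546). Rela (0.02) and Nfkb1 (0.21), the subunits of the classical route, did not pass, and Rel was above background on 0 arrays. Under 5 other scalings, however, Rela passed as lower, and Nfkb1 did so under 0. Nfkbib, an inhibitor, rose by 0.66 (SE 0.06, adjusted p = 0.00289) under every scaling. Chuk (0.39) and Ikbkg (0.36), parts of the IKK complex, rose under 2 and 5 scalings, and both calls were lost without negative replicate 1 or 2 (adjusted p of up to 0.0756).

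Among adaptors and enzymes next to the receptors, 17 of 33 tested were higher, 3 lower and 13 did not pass, with a median of 0.29. Of all genes 38.5% were higher, and 14 and 15 of the 33 lie in the brightest and the next class, where 67.1% and 44.6% of all genes were. Only 4 of the 17 passed as higher under every scaling, as 13.7% of all genes did: Mlkl, Map3k5, Otulin and Fadd. Mlkl, the executioner of necroptosis, went from 1.29 and 1.21 to 2.42 and 2.29 (difference 1.11, SE 0.08, 2.15-fold, adjusted p = 0.00203). Map3k5, a stress kinase, rose by 0.80 (SE 0.11), Otulin, a deubiquitinase of linear chains, by 0.55 (SE 0.05), and Fadd, the death domain adaptor, by 0.52 (SE 0.08). Fadd missed without negative replicate 1 (adjusted p = 0.0555).

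The 3 decreases were those of Traf1, Cyld and Birc2. Of all genes 21.4% were lower, and 14.4% were lower under every scaling. Traf1, an adaptor that is itself induced by NF-kappaB, went from -1.26 and -1.20 to -2.04 and -2.13, a difference of -0.85 (SE 0.07, 1.81-fold lower, adjusted p = 0.00222). Cyld, a deubiquitinase, had -0.36 (SE 0.06) and Birc2, a ubiquitin ligase, -0.25 (SE 0.06). All 3 held under every scaling, but Cyld was lost without negative replicate 1 or 2 (adjusted p of up to 0.0724) and Birc2 without any 1 of the 4 arrays (up to 0.142).

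Among 9 genes of ligand shedding and TNF messenger control, 2 rose, 2 fell and 5 did not pass, with a median of 0.03. Of all genes 38.5% were higher and 21.4% lower. Rhbdf1, which encodes a partner of the TNF sheddase, went from -0.59 and -0.71 to -2.45 and -2.50 (difference -1.82, SE 0.07, 3.54-fold lower, adjusted p = 0.00127). Its relative Rhbdf2, the form better known in blood cells, had 0.03, and the sheddase gene Adam17 0.28 (adjusted p = 0.062), which passed as higher under 4 other scalings. Zfp36l1, an RNA-binding regulator of unstable messages, fell by 0.55 (SE 0.06), and Sppl2b, an intramembrane protease, rose by 0.62 (SE 0.06), both under every scaling. Adam10 (0.25), a related sheddase, passed under 1 scaling only. Its call was lost without negative replicate 1 or 2, and when positive replicate 2 was left out (the highest adjusted p was 0.15).

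**Figure D3:**
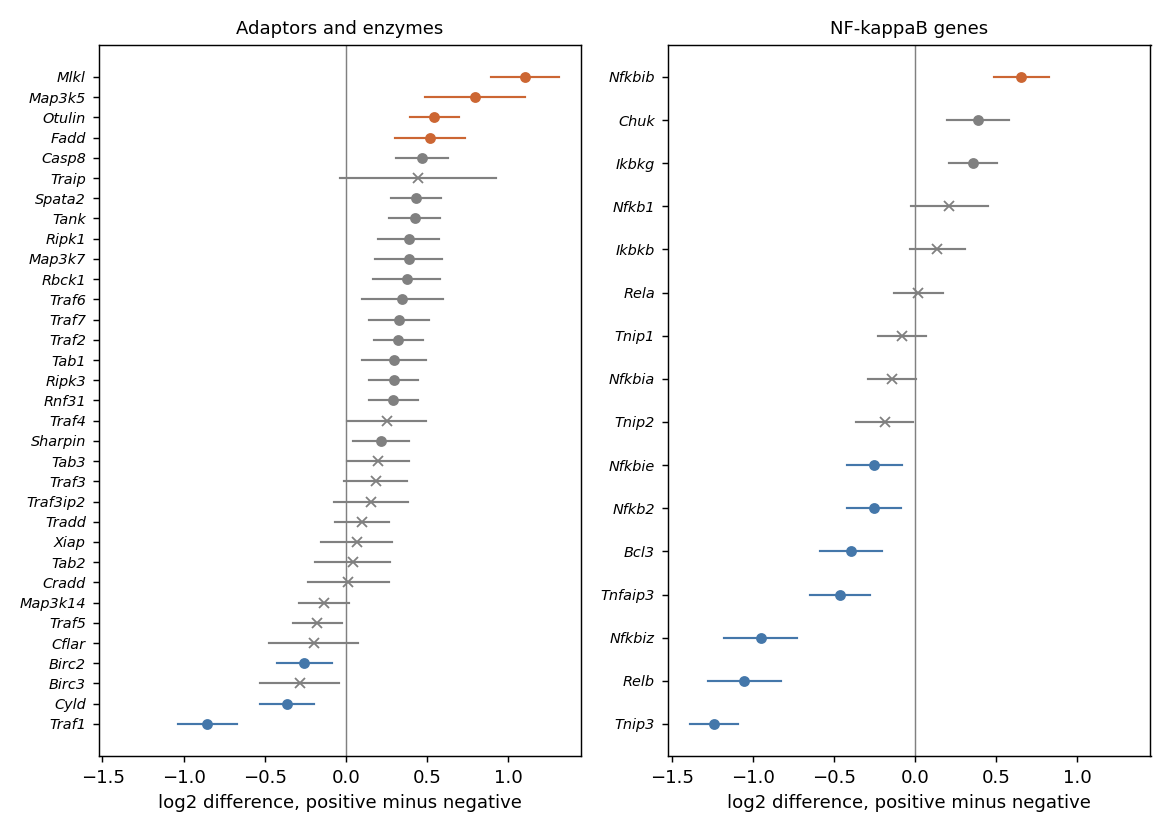
Log2 differences (positive minus negative) with 95% intervals are drawn for 33 adaptor and enzyme genes (left) and 16 NF-kappaB genes (right). Filled circles passed the test and crosses did not, orange and blue mark genes higher or lower under all 7 scalings and grey the rest. Blue genes number 7 on the right and 3 on the left.

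Because several members are best known from lymphocytes, markers of other cells were read beside these results. Of 8 T cell markers on the array, Cd3d, Cd3g, Cd8a and Cd8b1 were above background on 0 arrays. The summed linear level of the other 4 (Cd3e, Cd4, Lck and Thy1) was 24.9 and 24.7 in the negative group and 22.9 and 22.3 in the positive group, a sum carried by Lck. Lck (-0.20) and Thy1 (-0.89) were lower under every scaling, while Cd3e had 0.77 (adjusted p = 0.137). Of 7 B cell and plasma cell markers 4 were tested, with sums of 11.0 and 10.4 against 14.4 and 13.9, carried by Cd79b. Cd79b (0.36) and Jchain (2.65, under every scaling) were higher and 0 lower, and Ms4a1 and Ebf1 were at background. Of 7 NK cell markers 5 were tested, with sums of 33.1 and 34.5 against 39.2 and 39.1, carried by Nkg7 (0.20). Of the 5, 4 were higher, Klrd1 by 1.35 under every scaling, and 0 lower, and Ncr1 was at background. The summed level of 7 monocyte and macrophage markers was 34.6 and 30.2 in the negative group and 103 and 105 in the positive group, and 6 of the 7 rose. Itgam, which carried the sum in the negative group (4.64 and 4.37), fell (-0.52, under every scaling). Its kept probes disagreed, with differences from -0.52 to 0.54. That of 7 erythroid and megakaryocyte markers was 19.0 and 20.5 against 10.6 and 11.2, with 6 lower. For 4 conventional dendritic cell markers it was 0.995 and 0.999 against 2.66 and 2.73, with 3 higher. For 6 neutrophil markers it was 200.3 and 204.8 against 618.6 and 545.7, a sum carried by Mpo (difference 1.53). Elane (1.57) and Lcn2 (0.43) rose too, while S100a9 fell (-1.11, under every scaling). Of 5 plasmacytoid dendritic cell markers, with sums of 172 and 128 against 154 and 133, 3 rose, Ly6d by 3.34, and Ccr9 fell (-1.81). This sum is carried by the brighter probe of Siglech, at 7.15 and 6.61 in the negative group. That probe gave a difference of -0.20 and the other probe of Siglech 2.61, so the sum shows no direction. Among all genes tested 38.5% were higher and 21.4% lower. The part of the marker shifts in the family's changes was not tested. In sorted bulk samples, fewer cells of a type and less RNA per cell cannot be told apart.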

How the data were processed

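Per the file headers, the scanner software was Agilent Feature Extraction, version 10.7.3.1. A processed intensity, raw median intensities and flags are listed for every spot. These deposited intensities are not normalized between arrays. Per the labels' protocols, a low-input amplification kit was used, with Cy3 dye. The deposited matrix holds linear intensity values whose sorted columns are identical, as after quantile normalization.

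Control and outlier spots were left out, spots of a probe averaged, and log2 values centred on each array's 75th percentile (a signal of 318 to 543). No spot was saturated. Probes well above background (at least 0.5 of spots) on both arrays of a group were kept (30478 of 55669), named by RefSeq accession (GRCm38.p6 table), and the brightest kept probe stood for a gene. limma 3.58.1 in R 4.3.3 (lmFit, eBayes, two-sided) was fitted to 22362 genes and transcripts. With 2 against 2 arrays an exact permutation test cannot go below p = 0.333, so p-values rest on the model. Spike-in scaling used 4 bright E1A controls. The number of arrays limits precision.

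Members and lists were chosen with earlier results of these data known. Full array values are given for members past the threshold with a log2 difference of at least 1 or with 1 sign under every scaling, and for others picked after their values were seen; of pathway lists, up to 4 genes each way are named. Alternatives were the replicate block, each array left out, 6 scalings, 2 filters, an intensity trend, the mean of probes and an adjusted p of 0.01.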

Additional observations from a re-analysis of the deposited data

How the results depend on the processing

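Ltb, Tnfrsf18, Tnfsf10 and Tnfrsf25 stayed lower and past the threshold under all 16 alternatives run, each changing 1 choice. With 2 choices changed together, Tnfrsf25 was no longer lower under every scaling when negative replicate 1 or 2 or positive replicate 2 was left out, without the filter, with an intensity trend, or at an adjusted p of 0.01. The counts of members higher (5) and lower (5) became 1 and 14 when centred on probes above background, 0 and 17 with spike-in scaling, and 3 and 7 with cyclic loess. Without a filter on dim probes 8 were higher, with an intensity trend 8 were lower, and at an adjusted p of 0.01 there were 0 higher members (limma; 5 at 0.05). Leaving out 1 array gave 1 to 5 higher and 4 to 8 lower members, the 8 without positive replicate 2. Of all genes, 8611 higher and 4779 lower became 4382 and 7253 when centred on probes above background, 3464 and 7965 with spike-in scaling, and 5002 and 2859 at an adjusted p of 0.01. With cyclic loess 5542 were higher and without the filter 14564. Leaving out 1 array gave 4760 to 8002 higher and 2852 to 4772 lower. Pathway genes, 22 higher and 12 lower, became 11 and 20 with quantile normalization and also in the deposited matrix, 9 and 22 when centred on probes above background, 6 and 26 with spike-in scaling, 10 and 21 with cyclic loess, and 10 and 7 at an adjusted p of 0.01. Leaving out 1 array gave 9 to 20 higher and 6 to 11 lower. Leaving out 1 array gave 0 to 1 member higher under every scaling and 3 to 6 lower, and a filter above background on all 4 arrays gave 1 higher. The tandem Irf repeat, read on 1 strand, matched 1 member. Signs turned with centring on probes above background for Tnf (-0.086), Tnfrsf13c (-0.23), Tnfrsf1a (-0.11), Tnfrsf1b (-0.16), Tnfrsf21 (-0.15), Tnfrsf23 (-0.19), Tnfsf12 (-0.045), Tnfsf14 (-0.21) and Tnfsf8 (-0.17). Under cyclic loess the sign also turned for Tnfrsf13c (-0.14), Tnfrsf1a (-0.24), Tnfsf14 (-0.23), Tnfsf15 (0.049) and Adam10 (-0.10). In the deposited matrix the sign also turned for Tnfrsf11a (0.013), Tnfrsf13c (-0.11), Tnfrsf1a (-0.22), Tnfsf14 (-0.19) and Adam10 (-0.064). With the mean of a gene's probes the sign also turned for Tnfrsf13b (0.21), Tnfrsf13c (-0.021), Tnfrsf14 (0.14) and Tnfsf12 (-0.47). After normexp the sign also turned for Fas (0.061), Tnfsf14 (-0.078) and Tnfsf15 (0.21). Under quantile normalization the sign also turned for Tnfrsf11a (0.014), Tnfrsf13c (-0.11), Tnfrsf1a (-0.21), Tnfsf14 (-0.19) and Adam10 (-0.062). With spike-in scaling the sign also turned for Tnf (-0.15), Tnfrsf13c (-0.29), Tnfrsf1a (-0.17), Tnfrsf1b (-0.23), Tnfrsf21 (-0.21), Tnfrsf23 (-0.26), Tnfsf12 (-0.11), Tnfsf14 (-0.27), Tnfsf8 (-0.23) and Adam10 (-0.044). Leaving out 1 array turned the sign of Tnfrsf11a (-0.067 to 0.020), Tnfrsf12a (-0.38 to 0.21), Tnfrsf13c (-0.061 to 0.063), Tnfrsf14 (-0.35 to 0.068), Tnfrsf23 (-0.060 to 0.14), Tnfsf14 (-0.062 to 0.11) and Tnfsf15 (-0.48 to 0.35). The cause was not tested.

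The titles number the arrays exp 1 and exp 2, and nothing says that a number marks a shared animal or day. Deviations of same-numbered arrays correlated at 0.0971. With the replicate number as a block, 13946 genes were called instead of 13390, 5 members were higher and 5 lower, and 2 members (Ngfr and Tnfrsf19) instead of 0 were higher under every scaling.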

Other observations

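Genes of the family that the naming rule leaves out showed no called change. Relt, an orphan receptor, stood at 0.67 and 0.65 in the negative group and 0.61 and 0.77 in the positive group (difference 0.03, limma adjusted p = 0.78). Eda, the ectodysplasin ligand, stood at -2.94 and -3.13 in the negative group and -1.55 and -3.20 in the positive group, so that its difference of 0.66 (adjusted p = 0.376) comes from positive replicate 1 alone. Cd40lg, Edar and Eda2r were above background on 0 of 4 arrays.

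The promoters were also searched for letters bound by IRF factors. The Ets-Irf composite element occurred in 0 of 32 members on either strand, and in 2.72% of all promoters. A tandem repeat of the Irf core occurred in 4 members, Tnfrsf1b, Tnfrsf14, Tnfrsf17 and Tnfsf13b. That is 4 of the 36 member promoters, against 3.44% of all promoters. Of these 4 genes Tnfrsf1b and Tnfrsf14 were tested and did not pass, and the others were not tested. These counts describe the windows and say nothing of binding.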
